A study of Mus musculus with 16 samples.

Results

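The interleukin-20 subfamily was followed in mouse epidermis through 6 genes, chosen by name from 50600 gene identifiers: the cytokines Il19, Il20 and Il24 and the receptor chains Il20ra, Il20rb and Il22ra1. RNA was sequenced from 16 libraries, each from a separate female C57/B6J mouse, in 4 groups of 4. From 5 weeks of age the mice ate for 3 weeks either a synthetic diet poor in ligands of the aryl hydrocarbon receptor (the AhR-poor diet) or the same kind of diet with 200 ppm indole-3-carbinol (the I3C diet), a plant compound from which AhR ligands form. The footpad was then injected with 50 µl of PBS (vehicle) or with 50 µg of papain, a plant protease used as a model allergen, and the epidermis was taken 6 hours later. No gene was deleted and no transgene was carried in any group. Mice of a diet were housed together, so diet and cage cannot be told apart, and the epidermis was lifted off with dispase and freed of dead cells but not sorted by cell type. In such bulk samples fewer cells of a type and less RNA per cell cannot be told apart.

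IL-19, IL-20 and IL-24 are cytokines of the IL-10 family that epithelial and myeloid cells secrete and that act mostly on epithelial cells, in skin on keratinocytes. All of them bind the receptor formed by the IL-20RA and IL-20RB chains, and IL-20 and IL-24 also bind the receptor formed by IL-22RA1 and IL-20RB. The chains signal through JAK kinases and mainly STAT3, and in skin the cytokines are known for keratinocyte proliferation, for antimicrobial genes and for a place in psoriasis and wound repair. IL-22RA1 also pairs with IL-10RB to form the receptor of IL-22.

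The cytokine genes lie side by side on the minus strand of chromosome 1 in GRCm38 (mm10). Il24 (ENSMUSG00000026420) spans chr1:130882074-130887454, Il20 (ENSMUSG00000026416) chr1:130906985-130911451 and Il19 (ENSMUSG00000016524) chr1:130932656-130940115, with 19531 bp between the first pair and 21205 bp between the next. Il10 follows 79730 bp beyond Il19. The receptor genes are dispersed: Il20ra (ENSMUSG00000020007) at chr10:19712570-19760053 on the plus strand, Il20rb (ENSMUSG00000044244) at chr9:100457719-100486788 on the minus strand, and Il22ra1 (ENSMUSG00000037157) at chr4:135728172-135752140 on the plus strand. None of the 6 shares exonic bases with another annotated gene.

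Promoters from RefSeq (GRCm38.p6, 300 bases each) were matched for 5 of the 6 genes. Positions are counted from a start of transcription assigned in each window, with most bases before it. That start is not always the start of the gene span given above. The Il20rb window lies wholly inside its gene span, and the Il20 window mostly so. The windows were searched on both strands for 3 short motifs, TGANTCA for AP-1, TTCNNNGAA for STAT proteins and GCGTG for the AhR. These motifs occur in 7.81%, 8.3% and 32.4% of the 32851 mouse promoters of 300 bases. The promoters of a cytokine and of all 3 receptor chains are shown, with matches in capitals, because the results below turn on these genes, of which Il19 and Il20rb were called in a comparison and Il20ra and Il22ra1 were not.
Il19, chr1:130940066-130940365, minus strand: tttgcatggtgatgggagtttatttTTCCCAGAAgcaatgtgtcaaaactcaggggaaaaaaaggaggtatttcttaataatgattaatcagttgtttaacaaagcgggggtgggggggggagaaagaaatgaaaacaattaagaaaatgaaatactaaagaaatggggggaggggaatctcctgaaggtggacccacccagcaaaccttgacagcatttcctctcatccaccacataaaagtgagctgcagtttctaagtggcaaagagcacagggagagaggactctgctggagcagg
Il20ra, chr10:19712337-19712636, plus strand: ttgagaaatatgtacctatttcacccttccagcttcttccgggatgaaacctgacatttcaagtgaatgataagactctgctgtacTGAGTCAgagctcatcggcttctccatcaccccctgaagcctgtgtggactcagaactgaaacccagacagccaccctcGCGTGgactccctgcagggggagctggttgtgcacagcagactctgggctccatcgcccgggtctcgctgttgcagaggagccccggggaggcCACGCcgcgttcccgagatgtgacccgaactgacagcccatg
Il20rb, chr9:100486424-100486723, minus strand: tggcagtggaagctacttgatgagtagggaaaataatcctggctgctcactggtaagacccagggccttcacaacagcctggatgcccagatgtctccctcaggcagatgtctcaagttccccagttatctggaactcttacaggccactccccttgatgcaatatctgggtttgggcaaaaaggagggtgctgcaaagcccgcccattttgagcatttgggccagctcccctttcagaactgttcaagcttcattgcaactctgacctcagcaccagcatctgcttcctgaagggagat
Il22ra1, chr4:135727909-135728208, plus strand: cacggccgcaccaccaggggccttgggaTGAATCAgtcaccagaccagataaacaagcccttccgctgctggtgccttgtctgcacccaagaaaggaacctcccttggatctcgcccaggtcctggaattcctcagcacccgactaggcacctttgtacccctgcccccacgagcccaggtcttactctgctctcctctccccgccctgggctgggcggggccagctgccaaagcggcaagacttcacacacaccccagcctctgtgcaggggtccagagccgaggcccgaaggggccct
The Il19 promoter held a STAT match at -225 to -217 from the start assigned in its window. Counted in the same way, the Il22ra1 promoter held an AP-1 match at -222 to -216 and the Il20ra promoter one at -164 to -158. The Il20ra promoter also held GCGTG at -85 to -81 and, on the other strand, at 8 to 12 after the assigned start. In the windows of Il20rb and Il20 none of these letters were found. Counted from the gene spans above, no base before the start of Il20rb was searched. For Il20 only part of the window lies before that start. A match is a run of letters and no evidence of binding.

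The libraries held 22500821 to 51844375 counts, so that 3 counts corresponded to 0.0569 to 0.130 CPM, the usual unit that scales each count by its library total, here after TMM adjustment of that total, and 22155 genes with at least 10 counts in all were tested. A gene was called where edgeR's adjusted p was below 0.01 and the log2 fold change was beyond 1 in either direction. The papain libraries of the AhR-poor diet enter both the papain comparison on that diet and the diet comparison with papain, and likewise for the other groups, so the comparisons are not independent of each other. Markers of dermal fibroblasts stood apart by diet: the summed level of 6 markers was 2.14 to 13.3 CPM over the 8 I3C libraries and 93.2 to 607.0 CPM over the 8 AhR-poor libraries. Keratinocyte markers were abundant in every library, with 20372 to 35818 CPM for 5 basal markers, and edgeR and DESeq2 called none of the 5 basal or 5 suprabasal markers in any comparison, with 1 to 3 basal markers and 1 suprabasal marker at an unadjusted p below 0.05 in each papain or diet comparison.

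Per kb of exon, Il20rb was the most abundant of the 6 genes in every group, at a mean of 62.9 CPM per kb with vehicle and 31.7 with papain on the I3C diet, and 69.3 and 33.4 on the AhR-poor diet. The order below it changed with papain. With vehicle on the I3C diet Il22ra1 (6.44 CPM per kb) came next, above Il24 (1.80) and Il20ra (1.54), which overlapped each other. With vehicle on the AhR-poor diet the order was Il22ra1 (7.11), Il20ra (1.80) and Il24 (0.973), with no overlap. With papain Il24 moved up to the next place after Il20rb on both diets. On the I3C diet its 11.5 CPM per kb overlapped the 7.36 of Il22ra1, and on the AhR-poor diet its 14.6 lay above the 4.36 of Il22ra1 in every library. Il19 and Il20 were lowest in all groups, at or below a mean of 0.922 CPM per kb, and overlapped each other with vehicle on both diets.

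**Figure D1:**
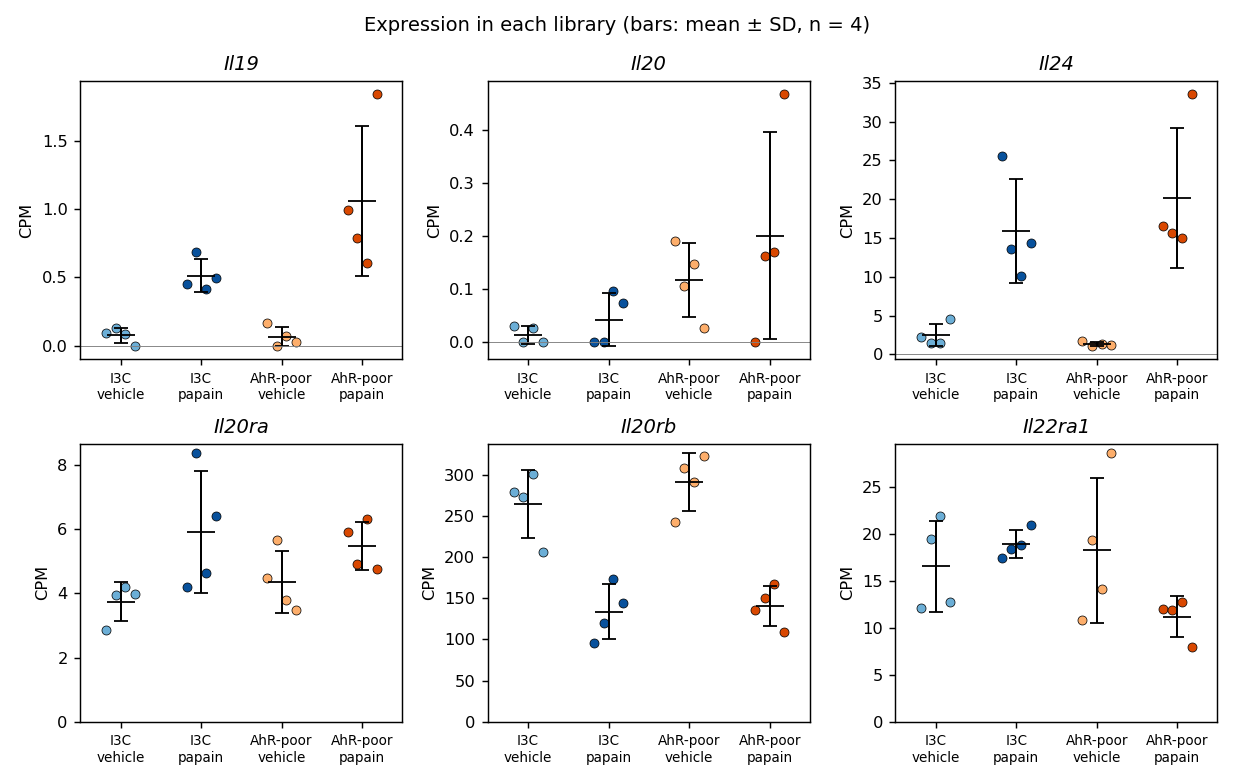
Levels in CPM (y axis, a scale of its own per gene) of the 6 genes in each of 16 libraries, by diet and injection, with horizontal bars for the mean and whiskers for the SD of 4 libraries. Il24 and Il19 lay higher and Il20rb lower with papain than with vehicle on each diet without overlap, and Il22ra1 with papain lay lower in AhR-poor than in I3C mice.

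The first question was how papain changed the cytokine genes on each diet. Il24 and Il19 rose with papain on both diets, Il24 from low to moderate levels and Il19 from the limit of detection to about 1 CPM or less in most libraries. Il24, the cytokine with the higher level, stood with vehicle on the AhR-poor diet at 1.06, 1.26, 1.36 and 1.72 CPM, and with papain on this diet at 14.9, 15.6, 16.5 and 33.6 CPM. All 4 papain libraries lay above all 4 vehicle libraries, and library T104 lay at 33.6 CPM while the others were between 14.9 and 16.5 CPM. The rise had a log2 fold change of 3.90 (SE 0.43, adjusted p = 8.64e-06), from a mean of 1.35 ± 0.275 to 20.2 ± 8.98 CPM (SD, n = 4). In I3C mice Il24 was at 1.52, 1.53, 2.31 and 4.59 CPM with vehicle and at 10.1, 13.6, 14.4 and 25.5 CPM with papain. Again the groups did not overlap, and the log2 fold change was 2.68 (SE 0.40, adjusted p = 9.76e-05).

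Il19, which signals through the IL-20RA and IL-20RB pair alone, was read from few counts. With vehicle on the AhR-poor diet it had 0, 1, 3 and 6 counts, and with papain 23, 29, 32 and 75. In CPM these were 0 to 0.163 against 0.607 to 1.85, without overlap, and the highest library was again T104. The log2 fold change was 3.94 (SE 0.58, adjusted p = 3.79e-05). Vehicle libraries of the I3C diet had 0, 3, 3 and 5 counts and its papain libraries 14, 17, 20 and 24. The means were 0.0748 ± 0.0537 and 0.511 ± 0.121 CPM (SD, n = 4), and the log2 fold change was 2.70 (SE 0.61, adjusted p = 0.00163).

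Il20, the cytokine after which the subfamily is named, had 61 counts over all 16 libraries and is given as counts with no fold. On the I3C diet the vehicle libraries had 0, 0, 1 and 1 counts and the papain libraries 0, 0, 3 and 4. On the AhR-poor diet the vehicle libraries had 1, 4, 6 and 7 and the papain libraries 0, 6, 9 and 19, the highest being T104. Il20 was called in no comparison. Its adjusted p was 0.437 for papain on the AhR-poor diet and 0.398 on the I3C diet, so at this depth no change with papain was detectable.

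Exact 2-sided permutation tests on log2(CPM + 0.1) gave p = 0.0286 for Il19 and for Il24 on each diet, the smallest value that 4 libraries against 4 allow. With papain on the AhR-poor diet 2 of the 6 genes were called higher, beside 6.04% of all genes tested, and 1 lower, beside 2.42%. With the I3C diet 2 were called higher, beside 3.69%, and 0 lower by edgeR, beside 5.29%. There 4 of the 6 had an unadjusted p below 0.05, and DESeq2 called 2 genes. Groups of libraries did not overlap for 3 of the 6 on the AhR-poor diet and for 4 on the I3C diet, against 33.0% and 33.4% of all genes.

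Markers of white blood cells moved with papain beside these genes. The summed level of 7 neutrophil markers was 3.90 to 5.84 CPM with vehicle and 56.6 to 295.2 CPM with papain on the AhR-poor diet, where edgeR called all 7 higher and DESeq2 6, and 2.15 to 3.36 and 22.8 to 34.7 CPM on the I3C diet, where edgeR called 1 and DESeq2 4. Most of the sum with papain on the I3C diet came from Cxcr2, a chemokine receptor, at a mean of 24.2 CPM, while Csf3r was at 0.739, Trem1 at 0.575, Mmp8 at 0.108 and Retnlg at 0.0891 CPM. Ly6g, a defining neutrophil marker, was at 0 in every library of the other groups and had counts only with papain on the AhR-poor diet, and Mmp8 was at 0 with vehicle on the I3C diet. The summed level of 6 monocyte and macrophage markers was 43.1 to 54.6 and 84.2 to 386.6 CPM on the AhR-poor diet, where 4 were called, and 18.9 to 28.3 and 11.1 to 36.3 CPM on the I3C diet, where edgeR and DESeq2 called 0 and 1 had an unadjusted p below 0.05. Of these markers Fcgr1 was at 0 in every vehicle library of the I3C diet. On the AhR-poor diet all 6 fibroblast markers were also called higher with papain, and on the I3C diet 1 of them, Dcn, was called lower (log2 fold change -1.73, adjusted p = 0.00747). The part of these cells in the levels of Il19 and Il24 was not tested.

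The same comparison was made for the receptor chains, and it showed the chain common to both receptors to be lower with papain. Il20rb was at 242.8, 290.9, 308.1 and 323.3 CPM with vehicle on the AhR-poor diet and at 109.3, 135.3, 150.0 and 167.2 CPM with papain. No papain library reached the lowest vehicle library. The log2 fold change was -1.05 (SE 0.17, adjusted p = 1.88e-04), and the gene was called lower. On the I3C diet Il20rb was at 206.1, 272.5, 278.7 and 301.4 CPM with vehicle and at 95.8, 119.8, 144.8 and 173.7 CPM with papain, again without overlap. There the log2 fold change was -0.99 (SE 0.17, adjusted p = 2.68e-04), just short of the fold minimum, so the same gene was called on the AhR-poor diet and not on the I3C diet although the estimates differed by less than their SE. Without library T103 or without T104 the AhR-poor estimate was -0.99 or -0.95 and was no longer called, and the I3C estimate passed the minimum at -1.09, -1.15 and -1.03 without T108, T106 and T115. Beside Il20rb, 4 of 5 eccrine sweat gland markers (Aqp5, Krt8, Krt19 and Slc12a2) had estimates toward lower levels with papain on both diets and Krt18 toward higher levels, with list medians of -0.64 and -0.65 on the log2 scale for the AhR-poor and the I3C diet. Aqp5, a water channel of the gland, was called lower by edgeR on the I3C diet, from 3.78 to 0.927 CPM. With the AhR-poor diet edgeR called 0 of the 5 (3 had an unadjusted p below 0.05), and DESeq2 called Aqp5 lower and Krt18 higher on each diet. Slc12a2, an ion transporter that made up most of the summed level of the list, had log2 fold changes of -0.64 and -0.65 (adjusted p = 5.20e-05 and 3.32e-05), short of the fold minimum. The part of these glands in the level of Il20rb was not tested.

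Il20ra, the chain that with Il20rb makes the receptor of all the cytokines, was at 2.85, 3.95, 3.99 and 4.19 CPM with vehicle on the I3C diet and at 4.20, 4.65, 6.42 and 8.39 CPM with papain. The lowest papain library lay just above the highest vehicle library. The log2 fold change was 0.66 (SE 0.21) with an adjusted p of 0.0196 by edgeR and 0.00534 by DESeq2, and the gene was not called. The exact permutation p was 0.0286, and 0.0571 with scaling by library size only. On the AhR-poor diet Il20ra was at 3.49, 3.81, 4.50 and 5.67 CPM with vehicle and at 4.78, 4.92, 5.93 and 6.32 CPM with papain. These groups overlapped, with a log2 fold change of 0.33 (SE 0.21, adjusted p = 0.251).

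Il22ra1, the chain common to the receptors of IL-20, IL-24 and IL-22, was at 10.9, 14.2, 19.4 and 28.6 CPM with vehicle on the AhR-poor diet and at 8.002, 11.97, 12.03 and 12.8 CPM with papain. The groups overlapped, and the log2 fold change of -0.71 (SE 0.26) had an adjusted p of 0.0520. Leaving out each library gave -0.88 to -0.39, the smallest without T103. In I3C mice it was at 12.1, 12.7, 19.5 and 21.9 CPM with vehicle and at 17.4, 18.4, 18.9 and 20.96 CPM with papain. The papain libraries lay inside the vehicle range, with a log2 fold change of 0.19 (SE 0.26, adjusted p = 0.625).

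**Figure D2:**
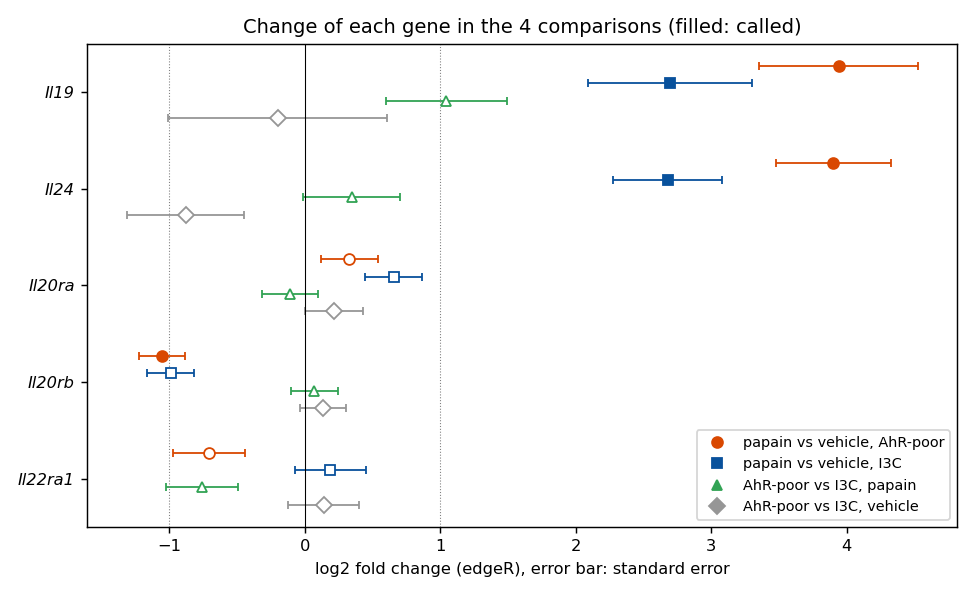
The edgeR log2 fold change (x axis) of 5 genes in the papain comparisons on each diet and in the diet comparisons with each injection, with whiskers for the SE, filled symbols for called genes and dotted lines at -1 and 1. Il19 and Il24 were called higher with papain on both diets (2.68 to 3.94), Il20rb lay at -1.05 and -0.99, and no diet comparison was called; Il20 is left out because its counts give no fold.

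The balance of the receptor chains was examined with ratios of CPM per kb within a library, chosen after the levels had been seen. The ratio of Il20rb to Il20ra was 41.9 ± 11.0 with vehicle and 14.0 ± 5.53 with papain on the I3C diet, and 40.1 ± 10.8 and 14.8 ± 2.10 on the AhR-poor diet (SD, n = 4). By the difference of mean log2 ratios, as for all folds here, it was 3.09-fold and 2.65-fold lower with papain, without overlap (exact permutation p = 0.0286 each, 0.0857 adjusted over 12 tests of 3 ratios). The ratio of Il20rb to Il22ra1 was 10.2 ± 2.65 and 4.29 ± 0.955 on the I3C diet, 2.37-fold lower with papain (exact permutation p = 0.0286). On the AhR-poor diet it was 10.7 ± 3.02 and 7.71 ± 0.626, and these groups overlapped (exact permutation p = 0.114). With papain the Il20rb to Il22ra1 ratio was 1.82-fold higher in AhR-poor than in I3C mice, without overlap (exact permutation p = 0.0286, 0.0857 adjusted). The ratio of Il22ra1 to Il20ra overlapped between the groups in every comparison. The levels of Il20rb and Il22ra1 given above enter these ratios, so their p values are no separate evidence.

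**Figure D3:**
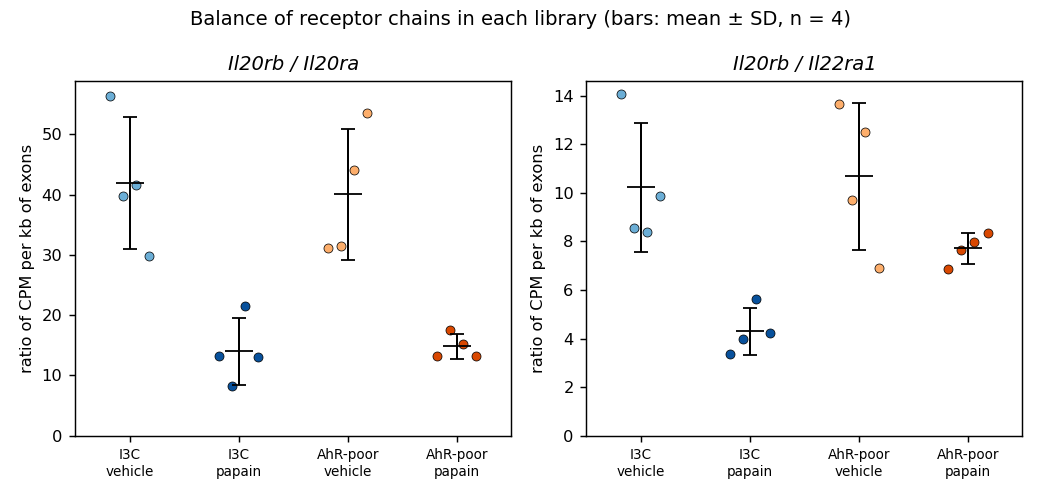
Ratios of CPM per kb of exon (y axis, from 0) of Il20rb to Il20ra and of Il20rb to Il22ra1 in each of 16 libraries, by diet and injection, with the mean and SD of 4 libraries. With papain the Il20rb to Il20ra ratio lay below the vehicle libraries on both diets (14.0 and 14.8 against 41.9 and 40.1), and the Il20rb to Il22ra1 ratio did so on the I3C diet (4.29 against 10.2).

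The next question was whether the diet changed these genes. With vehicle, edgeR called 0 of the 6 between the diets, 1 (Il20) had an unadjusted p below 0.05 and DESeq2 called 0, beside 1.59% of all genes called in either direction. No gene of the 6 had diet groups without overlap, against 8.12% of all genes. Il24 had a log2 difference of -0.88 (AhR-poor minus I3C, SE 0.43, adjusted p = 0.441), which was -0.40 without T108. The receptor chains differed by 0.14 to 0.22 on the log2 scale.

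With papain, edgeR again called 0 of the 6, 3 had an unadjusted p below 0.05 and DESeq2 called 0, beside 7.24% of all genes called in either direction. Il22ra1 was the only member whose groups did not overlap, a pattern shown by 24.9% of all genes. Its papain libraries were at 8.002 to 12.8 CPM on the AhR-poor diet and 17.4 to 20.96 CPM on the I3C diet. The log2 difference was -0.76 (SE 0.26) with an unadjusted p of 0.0120 and an adjusted p of 0.0553 by edgeR, and an adjusted p of 0.0165 by DESeq2. Over the alternatives other than leaving out a library, the adjusted p was 0.00303 to 0.0981. The log2 difference there was -0.76 to -0.66, never beyond the fold minimum. Beside it, with papain, 5 of 7 neutrophil, 6 of 6 monocyte and macrophage and 6 of 6 fibroblast markers were called higher on the AhR-poor diet. The summed level of 5 suprabasal keratinocyte markers was 21605 to 37517 CPM there and 32219 to 41530 CPM on the I3C diet. Of the keratinocyte markers 4 of 10 had an unadjusted p below 0.05, all toward lower levels on the AhR-poor diet and none past the fold minimum: Dsp, a desmosome protein, with a log2 difference of -0.62 (adjusted p = 0.00359), and the basal markers Itga6 (-0.47), Itgb4 (-0.42) and Col17a1 (-0.46), which attach keratinocytes to the basement membrane. Endothelial markers were called higher as well, 6 of 6, with a summed level of 19.3 to 50.04 CPM against 0.742 to 2.07 CPM. Of 5 T cell markers edgeR called 2 higher and DESeq2 3, with 13.5 to 35.3 CPM against 6.37 to 18.7 CPM. Of 5 Langerhans cell markers edgeR called 1 higher, Ptprc, and DESeq2 5, with 609.2 to 801.8 CPM against 162.0 to 503.5 CPM. By edgeR Cd207 had a log2 difference of 1.27 (adjusted p = 0.0185) and was not called. The part of the cell mixture in the Il22ra1 difference was not tested.

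Among the cytokines with papain, Il19 had a log2 difference of 1.05 in favour of the AhR-poor diet (SE 0.45, adjusted p = 0.109), and 3 of its 4 libraries lay above every I3C library. Without T104 this difference was 0.60 (adjusted p = 0.448). Il24 differed by 0.35 (SE 0.36, adjusted p = 0.567), and without T104 by -0.04. Il20 had an adjusted p of 0.0909. Il20ra and Il20rb differed by -0.11 and 0.07 (SE 0.21 and 0.17).

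The difference between the papain responses on the diets was tested as an interaction. By edgeR 0 of the 6 were called, 2 had an unadjusted p below 0.05 and DESeq2 called 0, beside 0.0181% of all genes. The log2 fold change of Il24 with papain was 1.224 larger with the AhR-poor diet (SE 0.56, unadjusted p = 0.0473, adjusted p = 0.363), and Il22ra1 differed by -0.90 (SE 0.37, unadjusted p = 0.0290, adjusted p = 0.320). Without T108 the Il24 value was 0.75 and without T104 0.85, and without T103 the Il22ra1 value was -0.58. A difference in the response of these genes between the diets is therefore not shown.

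Downstream of the receptors, 9 genes of JAK and STAT proteins and their inhibitors were counted. With papain on the AhR-poor diet edgeR and DESeq2 called 0, and 5 had an unadjusted p below 0.05. With papain on the I3C diet edgeR called 1 lower and 0 higher, DESeq2 called 2, and 7 had an unadjusted p below 0.05. The median log2 fold change of the 9 was 0.12 on the AhR-poor diet and -0.016 on the I3C diet, against -0.004 and -0.04 for all genes. Stat3, the main transducer of the subfamily, had edgeR log2 fold changes of 0.89 and 0.9997 (adjusted p = 6.74e-07 and 8.30e-08) and by edgeR did not pass the fold minimum. Cish, a feedback inhibitor of STAT5 signals, fell by 1.09 on the I3C diet. Socs3, the feedback inhibitor that STAT3 induces, had edgeR log2 fold changes of -0.33 and -0.89 and was not called by edgeR. The 2 genes that DESeq2 called on the I3C diet are not named here.

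Of 13 genes that these cytokines and IL-22 are known to raise in cultured keratinocytes, 11 were called higher with papain on each diet by edgeR and 11 by DESeq2, and the median log2 fold change was 3.98 on the AhR-poor diet and 4.67 on the I3C diet (4.28 with genes at the floor of 3 counts set at their bound). Krt16, a keratin of activated epidermis, rose from 158.5 to 2499 CPM on the AhR-poor diet and from 183.8 to 3564 CPM on the I3C diet. Lcn2, which encodes a protein that withholds iron from bacteria, rose from 2.55 to 102.2 CPM and from 1.51 to 89.7 CPM. Defb14, a beta-defensin, rose from 0.136 to 5.20 CPM and from 0.105 to 7.13 CPM. Cxcl5, a neutrophil attractant, was called on the AhR-poor diet, where it rose from 0.0324 to 20.5 CPM, while its I3C means were 0.0212 and 0.0446 CPM. With papain edgeR called it between the diets together with S100a9, and DESeq2 called 3 of the 13 there. By edgeR S100a7a was not called on either diet and Defb4 was not called on the AhR-poor diet. Many other signals raise these genes too, and S100a8 and S100a9 are abundant in neutrophils.

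Of 5 differentiation genes that the cytokines are known to lower in culture (Krt1, Krt10, Flg, Lor and Ivl), edgeR called 0 with papain on either diet and DESeq2 0, while 3 had an unadjusted p below 0.05 on the AhR-poor diet and 1 on the I3C diet, all toward lower levels. Their median log2 fold changes were -0.59 and -0.89. Flg, which encodes filaggrin, had the lowest estimates. Krt1 had estimates of 0.0063 on the AhR-poor diet and 0.21 on the I3C diet, and Krt10 of -0.44 and -0.047.

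Upstream, 9 cytokine genes known to induce the subfamily or to act beside it were counted. On the AhR-poor diet edgeR called 5 higher with papain (Il1a, Il1b, Tnf, Il13 and Osm) and on the I3C diet 2 (Il1b and Tnf). DESeq2 called 6 and 3 in either direction, which are not named here. Il1b, the inflammatory cytokine made by myeloid cells and keratinocytes, rose from 2.57 to 233.4 CPM on the AhR-poor diet and from 0.378 to 6.15 CPM on the I3C diet. Tnf rose from 12.2 to 37.0 CPM and from 6.98 to 16.5 CPM. Il6 had means of 4.21 and 8.94 CPM with vehicle and papain on the AhR-poor diet and of 6.32 and 2.41 CPM on the I3C diet. By edgeR Il6 was called in neither (log2 fold changes of 1.09 and -1.38, adjusted p = 0.0469 and 0.0157). Il17a was at or below a mean of 0.106 CPM in every group and was called in none of the comparisons. With papain 4 of the 9 (Il1b, Tnf, Osm and Il6) were called higher in AhR-poor than in I3C mice, beside the white blood cell markers given above.

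The remainder of the IL-10 family gave 3 of 7 tested genes called higher with papain on the AhR-poor diet, 3 between the diets with papain and 0 with papain on the I3C diet by edgeR, where 2 had an unadjusted p below 0.05 and DESeq2 called 0. Those called were Il10, Il10ra and Il10rb, beside the white blood cell markers that were called in the same comparisons, whose part in these levels was not tested. Il10, the anti-inflammatory cytokine encoded next to Il19, rose from 0.299 ± 0.188 to 4.99 ± 4.79 CPM on the AhR-poor diet (SD, n = 4, log2 fold change 4.07, SE 0.66, adjusted p = 1.91e-04), and its means were 0.470 and 0.709 CPM on the I3C diet. Il10rb, the chain that with IL-22RA1 forms the IL-22 receptor, rose in AhR-poor mice (log2 fold change 1.44, SE 0.16, adjusted p = 1.90e-06). In I3C mice its estimate was 0.53 (adjusted p = 0.0153) and was not called, and edgeR did not call its interaction (adjusted p = 0.0852), while DESeq2 called 2 of the 7 genes there, Il10 and Il10ra. Il22ra1 stood at -0.71 with papain on the AhR-poor diet and was not called. Il22, the ligand of that pair, had means of 0.0661 and 0.379 CPM with vehicle and papain on the AhR-poor diet (adjusted p = 0.0364) and of 0.0425 and 0.114 CPM on the I3C diet, and it was not called. Ifnlr1, the chain of the interferon lambda receptor, is encoded 19991 bp from Il22ra1 and had log2 fold changes with papain of 0.12 (AhR-poor) and 0.46 (I3C). Between the diets with papain its log2 difference was -0.44 (AhR-poor minus I3C, adjusted p = 0.00128 by edgeR), short of the fold minimum.

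The genes whose pattern over the 16 libraries was most like that of a member were ranked by Pearson's r of log2 values among 13026 genes with a mean of at least 1 CPM. For Il24 they were Tinagl1 (r = 0.987), Tubb6 (0.979) and Mmp3 (0.978). For Il20rb they were Sytl1 (0.988), Capns2 (0.987) and Hoxa9 (0.982). Il20ra had weaker likeness, with Pcx (0.895), Mboat7 (0.854) and Gstm6 (0.846), and Il22ra1 was closest to Stk24 (0.973), Mark2 (0.964) and Ric1 (0.959). After the group means were removed the same genes had r of 0.887, 0.912 and 0.796 to Il24, 0.948, 0.935 and 0.915 to Il20rb, 0.883, 0.750 and 0.799 to Il20ra, and 0.966, 0.949 and 0.954 to Il22ra1. The genes were ranked on all the variation over the libraries, that within groups included, so these values are not independent of the ranking. All points of such a correlation share their library and its depth and cell mixture, and the values are a description.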

How the data were processed

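Libraries of epidermal mRNA (TruSeq Stranded mRNA) were aligned by the authors with STAR to mm10, and the deposited values are raw counts per Ensembl gene; the counting tool and strand setting are not given in the sources used here. The 6 genes and all gene lists were chosen with earlier results of these data known. Symbols came from GENCODE M21 for 50376 of 50600 identifiers. Counts of 22155 genes (at least 10 in all) from all 16 libraries were fitted by group with edgeR 4.0.16 (TMM, robust quasi-likelihood F test, Benjamini-Hochberg adjustment over all genes; called at adjusted p below 0.01 and log2 fold change beyond 1), without covariates. CPM are on TMM library sizes. Exact 2-sided permutation tests used log2(CPM + 0.1). The genes named were the 6 members, the listed genes, and for each member with a mean of at least 1 CPM the 3 genes of highest correlation. Alternatives were other scalings (RLE, library size only), gene filters, thresholds, the 8 libraries compared alone, DESeq2 1.42.0 and leaving out each library. On simulated counts with 200 genes changed 4-fold, edgeR recovered at least 199 in each of 3 sets. The changed genes were drawn from those with a mean of at least 1 CPM over all libraries. The recovery therefore does not cover Il19 and Il20, which lay below that mean, or changes smaller than 4-fold. Each library is a separate mouse; the sequencing unit of each is not in the labels. A gene of the signalling list is not reported here, and its list was counted without it.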

Additional observations from a re-analysis of the deposited data

Results flagged for a closer look

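Il24 with papain on the AhR-poor diet had a library far from the others: T104 was at 33.6 CPM, and the remaining 3 libraries lay between 14.9 and 16.5 CPM. Of 24 sets of 4 libraries examined in this way (6 genes in 4 groups) this was the only such result, and chance alone marks about 1 in 20. T104 was also the highest of its group for Il19 and Il20 and the lowest for Il20rb, Il20ra and Il22ra1, and its summed level of suprabasal keratinocyte markers, 21605 CPM, was the lowest of its group. Without T104 the rise of Il24 with papain on the AhR-poor diet was still called.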

How the results depend on the processing

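The counts of called members stayed within 1.5 times the reported counts under every alternative run, and Il19 and Il24 were called higher with papain on both diets without any library in turn (log2 fold changes of 3.505 to 4.82 and 3.54 to 4.04 on the AhR-poor diet, 2.31 to 3.08 and 2.35 to 3.15 on the I3C diet). The call of Il20rb depended on the fold minimum, as given above: on the I3C diet it was also called with scaling by library size only (-1.03) and with no minimum fold (-0.99). The estimates that changed sign under an alternative were not called in any setting. For the diets with papain, Il20ra was at 0.000924 with scaling by library size only (0.040 as a difference of mean log2 CPM). Leaving out each library, the diet difference with vehicle ranged from -1.07 to 0.19 for Il19 and from -0.17 to 0.32 for Il22ra1, and with papain from -0.039 to 0.68 for Il24 (lowest without T104), -0.23 to 0.11 for Il20ra and -0.048 to 0.24 for Il20rb. The interaction ranged from -0.18 to 0.11 for Il20rb and from -1.46 to 0.0013 for Il20. The causes were not tested. No paired analysis was possible because the groups share no replicate numbers. With 4 mice a group, permutation p cannot fall below 0.0286. Depth limits Il20 throughout and Il19 with vehicle, where 3 counts are 0.0569 to 0.130 CPM.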

Other observations

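Within the groups, the cytokine Il24 and the receptor chain Il20rb ran opposite to each other, a pattern looked for after the levels had been seen. In all 4 groups the library with the highest Il24 was the library with the lowest Il20rb. On the I3C diet these were T108 with vehicle (4.59 and 206.1 CPM) and T113 with papain (25.5 and 95.8 CPM), and on the AhR-poor diet T100 with vehicle (1.72 and 242.8 CPM) and T104 with papain (33.6 and 109.3 CPM). The same 4 libraries had the lowest summed level of 5 suprabasal keratinocyte markers in their groups. That level was 29955 CPM in T108, 32219 in T113, 31251 in T100 and 21605 in T104. Its part in the pattern was not tested. After the group means were removed, log2 levels of Il24 and Il20rb had Pearson's r = -0.88 and Spearman's rho = -0.78 over the 16 libraries, and r = -0.84 without the pair farthest out in Il24 (T108 and T104). Il24 and Il22ra1 had r = -0.63 and rho = -0.73, and Il20rb and Il22ra1 had r = 0.60 and rho = 0.67. Il24 and Il20ra had r = -0.29, and Il20ra and Il20rb r = 0.07. The points share their library, depth and cell mixture, the pairs were not tested, and the values are a description.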
